A study of Mus musculus with 18 samples.

Results

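The SLC25 mitochondrial carriers were described in liver RNA-Seq of 18 mice. Genes whose symbol in the deposited table began with Slc25a and a number, and whose estimate had succeeded in all 6 groups, were taken, which gave 44 of 37303 genes. WT, *Gcn2*-/- and *Atf4*-/- mice on a C57BL/6J background received L-asparaginase (ASNase) at 3 IU per gram body weight, or the saline vehicle (PBS), in 8 daily intraperitoneal injections, and livers were taken 7.5 h after the last injection. Each of the 6 groups held 3 mice. GCN2 is the kinase that senses uncharged tRNA, ATF4 is the transcription factor translated when that kinase phosphorylates eIF2, and ASNase depletes blood asparagine and glutamine. Both deletions were carried in every tissue, so a difference in liver can come from liver or from elsewhere in the body, and the lines had been backcrossed for at least 8 generations. Mice without Atf4 are leaner than WT mice, which limits them as a model of events in liver alone. Mice were 8 to 16 weeks old by the sample labels (8 to 12 by the series design), and male and female mice were mixed: 1 of 3 mice was male in WT PBS and in both *Gcn2*-/- groups, and 2 of 3 in WT ASNase and both *Atf4*-/- groups, so strain and sex ratio cannot be fully told apart. In WT the sex ratio also changed with treatment. The WT response to ASNase, and any response set against it, therefore cannot be fully told apart from sex ratio.

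Values were in FPKM, the number of sequenced fragments scaled to transcript length and library size, 1 value per gene and group, made by Cuffdiff from the 3 libraries of that group together. No spread between single mice, SD or p-value could therefore be given, and the table carries no read counts behind the values (the library depths that the study lists were not used here). Each value carries the lower and upper bound of its Cuffdiff interval, printed in parentheses, and values are given in pairs, PBS first and ASNase second, for each strain, and among members over 3 FPKM the upper bound lay a median 47.6% to 50.6% above the value. Differences are on the log2(FPKM + 0.1) scale, which understates the change of low genes. The error beside a difference combines the log2 half-widths of both intervals. A difference was called, and is described as a rise or a fall, where the intervals were separate, the absolute log2 difference exceeded 1.5 and either group stood over 3 FPKM. Differences past 2-fold (absolute log2 over 1, same FPKM minimum, no demand on the intervals) are given as counts and values. *Atf4* itself stood at 32.3 and 29.3 FPKM in the *Atf4*-/- groups against 50.4 to 68.1 elsewhere, while *Eif2ak4*, which encodes GCN2, ranged from 2.19 to 3.14 FPKM and did not separate *Gcn2*-/- livers. The files pool the reads over the gene, so this gene total does not test a deletion of part of *Eif2ak4*. The same limit holds for the *Atf4* total. From read density plots, the study reports that an exon of the *Gcn2* gene was absent in *Gcn2*-/- mice and that *Atf4* was absent in *Atf4*-/- mice. The source of the remaining *Atf4* FPKM was not tested. In bulk tissue, fewer cells of a type and less RNA per cell cannot be told apart.

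SLC25 proteins form the largest family of solute carriers and nearly all sit in the inner mitochondrial membrane, where they exchange nucleotides, amino acids, keto acids, fatty acyl carnitines and cofactors between cytosol and matrix. In liver they link the urea cycle, gluconeogenesis, fatty acid oxidation and lipid synthesis to the mitochondrion: ornithine and aspartate carriers serve the urea cycle, the citrate carrier exports carbon for fatty acid synthesis, and the dicarboxylate and malate carriers move reducing equivalents. The members were placed in 14 substrate groups from their known transport activities.

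Promoter windows were read to show the start regions of the members whose ASNase response in *Atf4*-/- was called, and of *Slc25a25*, which shares the activity of *Slc25a23*. RefSeq windows of 250 bases before a start (GRCm38.p6) were on hand for 34 members, 43 windows in all, and were searched on both strands for 8 motifs. Where a gene had several windows (3 for *Slc25a25*, 2 for *Slc25a23*) the one with most matches is given. They run 5′ to 3′ on the strand of the gene, with capitals at the matches.

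Slc25a13, chr6:6217174-6217423, minus strand: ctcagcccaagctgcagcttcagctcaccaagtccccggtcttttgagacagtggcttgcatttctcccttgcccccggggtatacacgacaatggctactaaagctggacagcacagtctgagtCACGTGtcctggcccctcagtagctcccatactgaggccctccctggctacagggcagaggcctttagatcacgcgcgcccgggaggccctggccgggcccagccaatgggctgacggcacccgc
Slc25a23, chr17:57059843-57060092, minus strand: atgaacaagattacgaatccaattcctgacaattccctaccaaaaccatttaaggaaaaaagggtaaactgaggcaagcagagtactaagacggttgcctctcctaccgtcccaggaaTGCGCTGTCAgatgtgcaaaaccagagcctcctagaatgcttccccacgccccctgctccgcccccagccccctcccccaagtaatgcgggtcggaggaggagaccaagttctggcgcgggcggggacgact
Slc25a25, chr2:32451471-32451720, minus strand: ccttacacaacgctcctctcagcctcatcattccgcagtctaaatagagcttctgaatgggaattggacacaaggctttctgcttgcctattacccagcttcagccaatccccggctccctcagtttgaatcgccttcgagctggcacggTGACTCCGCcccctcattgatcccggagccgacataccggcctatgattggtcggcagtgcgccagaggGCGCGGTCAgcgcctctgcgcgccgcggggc
Slc25a33, chr4:149774268-149774517, minus strand: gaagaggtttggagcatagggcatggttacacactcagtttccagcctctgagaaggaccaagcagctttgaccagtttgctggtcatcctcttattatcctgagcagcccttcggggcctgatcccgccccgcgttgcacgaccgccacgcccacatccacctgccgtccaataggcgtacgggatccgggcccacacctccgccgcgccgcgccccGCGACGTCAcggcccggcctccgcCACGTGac

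In *Slc25a13* the capitals mark an E-box (CACGTG), and in *Slc25a23* they mark the antioxidant response element core TGACNNNGC followed by A, here on the reverse strand and counted both with and without that A. In *Slc25a25* both marks are the core TGACNNNGC, 1 on each strand, and in *Slc25a33* the first mark is that core on the reverse strand and the second an E-box. The core was found in 9 windows of 7 members and in 10.2% of 32851 windows, its form with A in 1 member and 2.47%, and the E-box in 8 windows of 7 members and 6.02%. The C/EBP-ATF response element TGATGNAA, through which ATF4 is known to act, was in none of the 43 member windows and in 3.45% of all windows. The cAMP response element TGACGTCA was in windows of *Slc25a25* and *Slc25a36* (1.55% of all), the ETS motif CCGGAAG in those of *Slc25a17*, *Slc25a20*, *Slc25a3*, *Slc25a38* and *Slc25a4* (6.91%), and the nuclear receptor motifs DR1 (a direct repeat with a 1-base spacer) and CAAAGTCCA in none (0.0335% and 0.384%). A match describes letters in a window and is not evidence of binding, and elements outside these windows were not searched.

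Liver levels of the 44 members covered a wide range. All were protein coding, they lay on 19 chromosomes, and 29 were over 3 FPKM in every group, 4 were over 100 FPKM in every group and 8 were under 1 FPKM in every group. The 4 abundant ones were *Slc25a5* (an ADP/ATP exchanger), *Slc25a3* (the phosphate carrier), *Slc25a39* (a glutathione carrier) and *Slc25a47*, a liver-enriched member without an agreed substrate. Summed over all 44, the level was 2469 and 2598 FPKM in WT, 2450.3 and 1985 in *Gcn2*-/-, and 2193 and 2254 in *Atf4*-/- liver. The phosphate carrier *Slc25a3*, which supplies the matrix with phosphate for ATP synthesis, stood at 229 (108 to 350.2) and 238 (118 to 358) FPKM in WT, 237 (122 to 352) and 189 (95.9 to 281) in *Gcn2*-/- and 199 (99.0 to 298) and 268 (127 to 409) in *Atf4*-/-, and its intervals overlapped throughout. Of the 31 members with a mean over 3 FPKM, 19 had their lowest value and 6 their highest in *Atf4*-/- ASNase, beside 31.2% and 33.4% of all 9062 genes over that mean.

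ASNase left the carriers of WT liver within a narrow band. No member was called among 32 that could be (0.881% of 9084 genes were called), and none was past 2-fold (2.93% of genes). The median log2 difference of the 31 members was 0.01, beside -0.01 for all genes. In *Gcn2*-/- liver, 1 of 32 members fell and none rose (of 9218 genes 2.13% were called lower and 1.56% higher), and 6 were past 2-fold, 1 higher and 5 lower (6.35% of genes higher and 7.77% lower). The median was -0.29 beside 0.00. In *Atf4*-/- liver, 1 of 32 members rose and 2 fell (of 9485 genes 2.74% were called higher and 4.63% lower), and 15 were past 2-fold, 3 higher and 12 lower (10.9% of genes higher and 12.8% lower). The share of members called lay near the background in both knockouts, while the 12 of 32 past 2-fold lower made 37.5% of members in *Atf4*-/- liver. The median was -0.45 beside 0.05, and 23 of 31 members were lower after ASNase. These medians describe the list and were not tested.

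**Figure D1:**
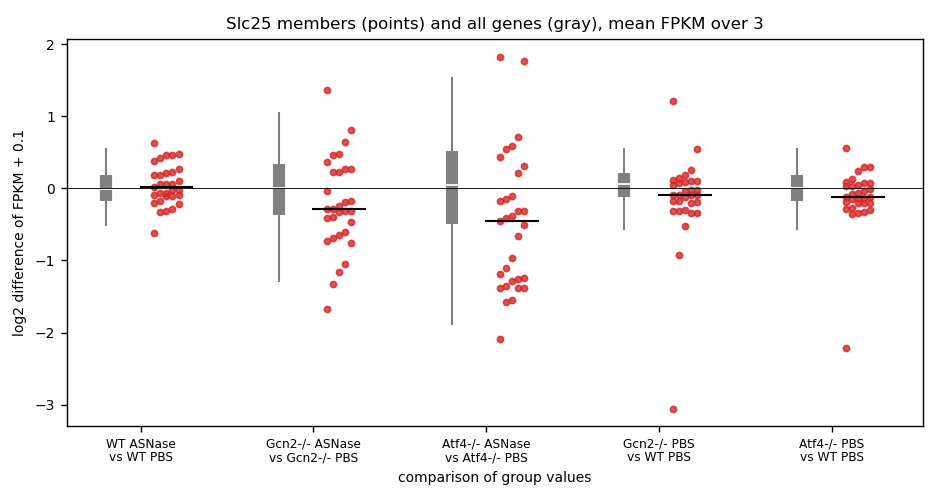
log2(FPKM + 0.1) differences (vertical axis) in 5 comparisons (horizontal axis). Each point is 1 of the 31 members with a mean over 3 FPKM and the black line their median; for all 9062 genes over that mean the gray box spans the interquartile range, the white line the median and the thin line the 5th to 95th percentile. The members' median moves from 0.01 in WT to -0.29 in Gcn2-/- and -0.45 in Atf4-/- after ASNase.

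Of the 4 aspartate and glutamate carriers, 1 fell in *Atf4*-/- liver after ASNase (4.63% of all genes were called lower). None was called in the other strains (0.881% of genes in WT, and 2.13% lower and 1.56% higher in *Gcn2*-/-). *Slc25a18* stood at 0.239 FPKM or less in every group and could not be called. *Slc25a13* encodes citrin, the liver form of the aspartate for glutamate exchanger that feeds aspartate to the urea cycle and drives the malate-aspartate shuttle (chr6:6041218-6217173, minus strand, ENSMUSG00000015112). It stood at 79.9 (43.1 to 117) and 90.6 (49.3 to 132) FPKM in WT, 74.9 (41.5 to 108) and 45.0 (25.4 to 64.6) in *Gcn2*-/- and 75.8 (41.9 to 109.7) and 25.9 (14.3 to 37.4) in *Atf4*-/-. *Atf4*-/- ASNase was the lowest group, its interval lay below those of all 3 PBS groups and of WT ASNase, and it overlapped that of *Gcn2*-/- ASNase. *Slc25a13* fell in *Atf4*-/- liver by 1.55 on the log2 scale (error 0.98), 2.92-fold, and was lower in *Atf4*-/- ASNase than in WT ASNase by a called log2 difference of -1.81 (error 0.99). In *Gcn2*-/- liver the difference was -0.73 (error 0.964) and in WT 0.18 (error 1.01). The ASNase difference in *Atf4*-/- minus that in WT was -1.73, beyond its error of 1.41.

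*Slc25a22*, a glutamate uptake carrier, stood at 173 (0 to 439) and 170.4 (0 to 442) FPKM in WT, 136 (0 to 370.1) and 102 (0 to 288) in *Gcn2*-/- and 159 (0 to 405) and 65.5 (0 to 179) in *Atf4*-/-. Its intervals reached 0 in every group, so the *Atf4*-/- difference of -1.28 could not be called at this precision. *Slc25a12*, aralar, the counterpart of citrin in other tissues, stood at 19.8 and 27.3 FPKM in WT, 13.7 and 24.2 in *Gcn2*-/- and 19.0 and 27.7 in *Atf4*-/-, with intervals that also reached 0 throughout. The ratio of *Slc25a12* to *Slc25a13* was 0.25 and 0.30 in WT, 0.18 and 0.54 in *Gcn2*-/-, and 0.25 and 1.07 in *Atf4*-/- liver. Aralar and citrin transcripts were thus about level in the last group by their values, although the change of that ratio in *Atf4*-/- (log2 2.09) was within its error of 6.69. The summed level of the 4 aspartate and glutamate carriers was 273 and 288 FPKM in WT, 225 and 171 in *Gcn2*-/-, and 254 and 119 in *Atf4*-/- liver. This sum carries no bounds and includes *Slc25a22* and *Slc25a12*, whose intervals reach 0.

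Of the 4 citrate and dicarboxylate carriers, 3 were past 2-fold lower in *Atf4*-/- liver after ASNase (12.8% of all genes), 1 in *Gcn2*-/- (7.77%) and none in WT, and none was called. *Slc25a1*, the citrate exporter that supplies cytosolic acetyl-CoA, stood at 163 (78.8 to 246) and 134 (64.6 to 203) FPKM in WT, 153 (74.0 to 232) and 90.8 (42.2 to 139) in *Gcn2*-/- and 135 (65.1 to 204) and 56.7 (29.2 to 84.3) in *Atf4*-/-. *Slc25a10*, which exchanges malate or succinate for phosphate, stood at 104 (55.5 to 153) and 89.4 (48.9 to 130) FPKM in WT, 90.5 (49.9 to 131) and 43.6 (25.3 to 61.9) in *Gcn2*-/- and 84.9 (46.4 to 123) and 32.6 (18.5 to 46.7) in *Atf4*-/-. In both genes WT values stayed high and values ran down through *Gcn2*-/- ASNase to *Atf4*-/- ASNase. The intervals of *Slc25a1* overlapped throughout, and the *Atf4*-/- ASNase interval of *Slc25a10* lay below those of both WT groups and *Gcn2*-/- PBS. Neither was called: the log2 differences in *Atf4*-/- were -1.24 (error 1.12) and -1.38 (error 0.968), and in *Gcn2*-/- -0.75 and -1.05. *Slc25a21*, the 2-oxoadipate carrier of lysine and tryptophan breakdown, stood at 7.95 and 6.89 FPKM in WT, 7.34 and 5.54 in *Gcn2*-/- and 7.79 and 3.21 in *Atf4*-/-. *Slc25a11*, the 2-oxoglutarate for malate exchanger, stood at 51.4 and 47.8 FPKM in WT, 57.0 and 35.4 in *Gcn2*-/- and 44.6 and 22.9 in *Atf4*-/-. The 4 members summed to 326 and 278 FPKM in WT, 308 and 175 in *Gcn2*-/-, and 272 and 115 in *Atf4*-/- liver.

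**Figure D2:**
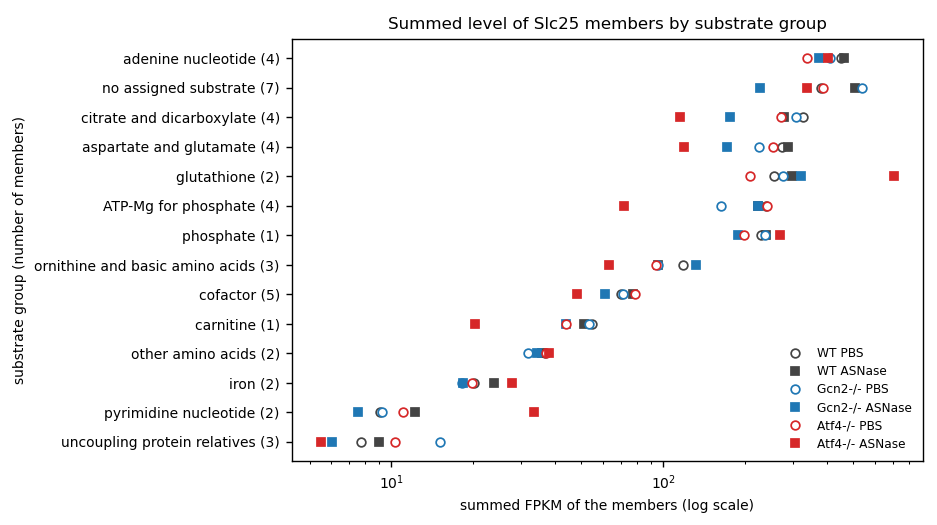
Summed FPKM of the members of each substrate group (horizontal log axis) for the 14 groups (vertical axis, number of members in parentheses), open circles for PBS and filled squares for ASNase, gray for WT, blue for Gcn2-/- and red for Atf4-/-. In Atf4-/- ASNase the citrate and dicarboxylate sum is at 115 FPKM and the ATP-Mg sum at 71.4, the lowest of the 6 groups. The glutathione sum there is at 705 and the pyrimidine sum at 33.5, the highest. Sums carry no bounds. The ATP-Mg sum includes Slc25a25, whose intervals reach 0. The glutathione sum is nearly all Slc25a39 (704 FPKM), whose interval overlaps those of every other group.

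The carnitine carrier *Slc25a20* brings acylcarnitines into the matrix for beta-oxidation. It stood at 54.8 (32.2 to 77.5) and 51.0 (29.9 to 72.1) FPKM in WT, 53.4 (31.0 to 75.7) and 43.9 (24.4 to 63.4) in *Gcn2*-/- and 43.7 (25.8 to 61.7) and 20.2 (11.4 to 29.1) in *Atf4*-/-. The *Atf4*-/- ASNase interval lay below those of both WT groups and of *Gcn2*-/- PBS, and overlapped those of *Gcn2*-/- ASNase and *Atf4*-/- PBS. The log2 difference of -1.11 (error 0.918) in *Atf4*-/- was past 2-fold and not called, and that against WT ASNase was -1.33 (error 0.922). The enzymes on either side of this carrier, from a list of 39 genes of mitochondrial transport and its partner pathways, were called in comparisons with *Atf4*-/- ASNase. *Cpt2* stood at 70.8 and 62.0 FPKM in WT, 68.3 and 36.7 in *Gcn2*-/- and 57.7 and 14.1 in *Atf4*-/-, and fell in *Atf4*-/- by 2.02 on the log2 scale. *Cpt1a*, which makes the acylcarnitines, stood at 88.6 and 147 FPKM in WT, 140.1 and 58.2 in *Gcn2*-/- and 94.8 and 38.6 in *Atf4*-/-, and was lower in *Atf4*-/- ASNase than in WT ASNase by a called -1.93.

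Ornithine and basic amino acid carriers, which serve the urea cycle, held no called member. Of all genes, 2.13% were called lower and 1.56% higher with ASNase in *Gcn2*-/-, and 4.63% and 2.74% in *Atf4*-/-. *Slc25a15*, the ornithine for citrulline exchanger, stood at 117 (60.4 to 174) and 93.7 (49.7 to 138) FPKM in WT, 94.0 (50.4 to 138) and 130.3 (64.1 to 197) in *Gcn2*-/- and 92.2 (48.2 to 136) and 58.0 (28.5 to 87.5) in *Atf4*-/-. It was highest in *Gcn2*-/- ASNase and lowest in *Atf4*-/- ASNase, and those intervals overlapped. The ASNase differences were -0.32 in WT, 0.47 in *Gcn2*-/- and -0.67 in *Atf4*-/-, none called. *Otc*, the matrix enzyme that uses the imported ornithine, stood at 283 and 234 FPKM in WT, 339 and 96.5 in *Gcn2*-/- and 239 and 15.7 in *Atf4*-/-, and fell in both knockouts, with called log2 differences of -1.81 (*Gcn2*-/-) and -3.92 (*Atf4*-/-). The other urea cycle enzymes looked at, *Cps1*, *Ass1*, *Asl* and *Arg1*, were not called between ASNase and PBS in any strain. *Slc25a29*, a carrier of basic amino acids, was low, at 1.21 (0.266 to 2.15) and 1.76 (0.537 to 2.99) FPKM in WT, 1.74 (0.319 to 3.16) and 2.02 (0.514 to 3.53) in *Gcn2*-/- and 1.42 (0.262 to 2.59) and 4.92 (1.49 to 8.34) in *Atf4*-/-. *Atf4*-/- ASNase was the only group over 3 FPKM, and its interval overlapped those of the others, so the log2 difference of 1.72 (error 1.88) was past 2-fold and not called. *Slc25a2*, the other ornithine carrier, stayed under 1 FPKM in every group.

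Among the other amino acid carriers, *Slc25a44*, which imports branched-chain amino acids, stood at 22.7 and 22.3 FPKM in WT, 18.2 and 17.8 in *Gcn2*-/- and 23.3 and 17.0 in *Atf4*-/-. *Slc25a38*, the glycine carrier needed for heme synthesis, stood at 13.9 and 13.4 FPKM in WT, 13.7 and 16.6 in *Gcn2*-/- and 13.8 and 20.9 in *Atf4*-/-. No intervals of either gene were separate in the comparisons made.

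ADP/ATP exchangers showed the family's largest difference between strains under PBS. *Slc25a4*, the form of heart and skeletal muscle (chr8:46206797-46211284, minus strand, ENSMUSG00000031633), stood at 33.2 (18.2 to 48.1) and 44.3 (17.5 to 71.1) FPKM in WT, 3.90 (1.91 to 5.88) and 5.42 (2.84 to 8.00) in *Gcn2*-/- and 7.07 (3.75 to 10.4) and 6.59 (3.33 to 9.85) in *Atf4*-/-. Both WT groups lay above all 4 knockout groups, with no overlap of intervals. Against WT PBS, *Slc25a4* was lower in *Gcn2*-/- PBS by a called log2 difference of -3.06 (error 1.05) and in *Atf4*-/- PBS by -2.21 (error 1.01). It was the only member called in either comparison (0.65% of 8920 genes and 0.763% of 9039 genes were called lower). *Slc25a4* and *Slc25a30* were the 2 members past 2-fold in *Gcn2*-/- PBS (4.05% of genes), and *Slc25a4* the 1 in *Atf4*-/- PBS (2.07% lower). After ASNase it was again lower than WT, by -3.01 in *Gcn2*-/- and -2.73 in *Atf4*-/-. The ASNase differences within strains were 0.42 in WT, 0.47 in *Gcn2*-/- and -0.10 in *Atf4*-/-, none called. *Slc25a5*, the form that predominates in liver, stood at 384 (199 to 569) and 388 (202 to 574) FPKM in WT, 376 (193 to 559) and 333 (172 to 494) in *Gcn2*-/- and 299.5 (159.7 to 439) and 370.3 (184 to 557) in *Atf4*-/- and its intervals overlapped throughout.

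Skeletal muscle transcripts were, like *Slc25a4*, highest in WT. For 10 muscle markers the summed level was 841 and 1206 FPKM in WT, 10.7 and 12.8 in *Gcn2*-/-, and 73.6 and 156 in *Atf4*-/- liver. All 10 were over 3 FPKM in both WT groups, 2 of 10 in both *Gcn2*-/- groups and 8 of 10 in both *Atf4*-/- groups. *Acta1*, skeletal muscle actin, stood at 161 and 277 FPKM in WT and at 0.0528 and 0.158 in *Gcn2*-/- livers, and *Myh4*, a fast myosin, was listed at 0 in *Gcn2*-/- PBS. The part of these transcripts in the *Slc25a4* difference was not tested. No other member was called between strains under PBS, and *Slc25a5* stayed between 299.5 and 388 FPKM in every group.

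**Figure D3:**
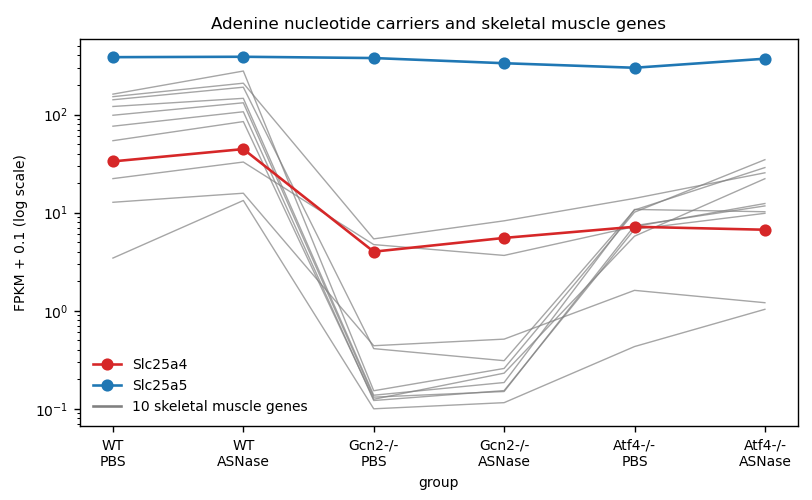
FPKM + 0.1 (vertical log axis) in the 6 groups (horizontal axis) for Slc25a4 (red), Slc25a5 (blue) and each of 10 skeletal muscle markers (gray lines). Slc25a4 is at 33.2 and 44.3 FPKM in WT and between 3.90 and 7.07 in the knockouts, the muscle markers are also lower there, and Slc25a5 lies between 299.5 and 388 FPKM.

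ATP-Mg for phosphate carriers set the adenine nucleotide pool of the matrix, and some of them respond to cytosolic calcium. *Slc25a23* (chr17:57043711-57059863, minus strand, ENSMUSG00000046329) stood at 104 (39.0 to 169.8) and 83.8 (32.0 to 136) FPKM in WT, 92.3 (33.8 to 151) and 41.3 (15.7 to 66.8) in *Gcn2*-/- and 94.8 (35.6 to 154) and 22.3 (8.99 to 35.6) in *Atf4*-/-. Its values ran lower after ASNase in each strain, least in WT, and the intervals of the *Atf4*-/- groups separated only just. It fell in *Atf4*-/- by 2.08 on the log2 scale (error 1.44), 4.24-fold. In *Gcn2*-/- the difference was -1.16 (error 1.495), past 2-fold and not called, and in WT -0.32. The ASNase difference in *Atf4*-/- minus that in WT, -1.77, was within its error of 2.07. *Slc25a25* stood at 133 (0 to 319) and 139 (0 to 338) FPKM in WT, 69.9 (0 to 179.9) and 181 (0 to 467) in *Gcn2*-/- and 145 (0 to 354) and 48.6 (0 to 112) in *Atf4*-/-. Its values went in opposite directions in the knockouts after ASNase, 1.37 in *Gcn2*-/- and -1.58 in *Atf4*-/-, but every interval reached 0 and the difference between these responses, -2.95, was far within its error of 11.3. *Slc25a24* and *Slc25a41* were under 1 FPKM in every group, and *Slc25a41*, the neighbour of *Slc25a23* on chromosome 17, was listed at 0 in 5 of 6 groups.

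The pyrimidine nucleotide carrier *Slc25a33*, which supplies the matrix with nucleotides for mitochondrial DNA and RNA (chr4:149744036-149774277, minus strand, ENSMUSG00000028982), was the only member that rose. It stood at 7.36 (3.86 to 10.9) and 10.3 (5.55 to 15.04) FPKM in WT, 7.97 (4.09 to 11.8) and 6.38 (3.19 to 9.58) in *Gcn2*-/- and 9.01 (4.65 to 13.4) and 32.2 (17.8 to 46.6) in *Atf4*-/-. The *Atf4*-/- ASNase interval lay above those of all 5 other groups, which overlapped one another. *Slc25a33* rose in *Atf4*-/- by 1.82 on the log2 scale (error 1.02), 3.54-fold. It was also higher in *Atf4*-/- ASNase than in WT ASNase, by 1.63 (error 0.993), and than in *Gcn2*-/- ASNase, by 2.31 (error 1.04), both called. It was the 1 member called in that last comparison (0.898% of 9355 genes were called higher). In WT the ASNase difference was 0.48 and in *Gcn2*-/- -0.32. The response in *Atf4*-/- exceeded that in *Gcn2*-/- by 2.14, beyond its error of 1.49, and that in WT by 1.34, within its error of 1.45. *Slc25a36*, the second pyrimidine carrier, stood at 1.697 and 1.89 FPKM in WT, 1.24 and 1.14 in *Gcn2*-/- and 2.06 and 1.38 in *Atf4*-/-. The ratio of *Slc25a33* to *Slc25a36* was 4.33 to 6.41 in 5 groups and 23.2 in *Atf4*-/- ASNase. The change of that ratio with ASNase in *Atf4*-/- (log2 2.36) was within its error of 2.94.

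Glutathione import into mitochondria depends on *Slc25a39*, and *Slc25a40* is its close relative. *Slc25a39* (chr11:102402985-102407946, minus strand, ENSMUSG00000018677) stood at 254 (120.2 to 387) and 297 (133 to 460.2) FPKM in WT, 273 (133 to 414) and 320.4 (149 to 492) in *Gcn2*-/- and 208 (102 to 314) and 704 (243 to 1164) in *Atf4*-/-. *Atf4*-/- ASNase had the highest value, and its wide interval overlapped those of every other group. The log2 difference in *Atf4*-/- was therefore 1.76 (error 1.39) without a call under the interval rule, while the difference exceeded its combined error, so the call depended on how the intervals were combined. *Slc25a40* stood at 1.42 and 1.42 FPKM in WT, 1.30 and 1.36 in *Gcn2*-/- and 1.42 and 1.28 in *Atf4*-/-. *Slc25a39* was thus 549 times *Slc25a40* in *Atf4*-/- ASNase and 146 to 236 times in the other groups. The change of that ratio with ASNase in *Atf4*-/- (log2 1.90) was within its error of 1.93. *Slc25a39* is also abundant in red cell precursors. The summed level of 8 erythroid markers was 285 and 157 FPKM in WT, 161 and 11.8 in *Gcn2*-/-, and 239 and 7.53 in *Atf4*-/- liver, lowest in the group where *Slc25a39* was highest, and their part in the *Slc25a39* values was not tested.

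The iron carriers *Slc25a28* and *Slc25a37* (mitoferrins) bring iron to heme and iron-sulfur cluster synthesis. *Slc25a28* stood at 10.8 and 11.6 FPKM in WT, 9.41 and 11.0 in *Gcn2*-/- and 9.81 and 16.2 in *Atf4*-/-. *Slc25a37*, the form of erythroid cells, stood at 9.39 and 12.2 FPKM in WT, 8.76 and 7.37 in *Gcn2*-/- and 9.90 and 11.5 in *Atf4*-/-. Neither was past 2-fold in any comparison of ASNase with PBS.

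**Figure D4:**
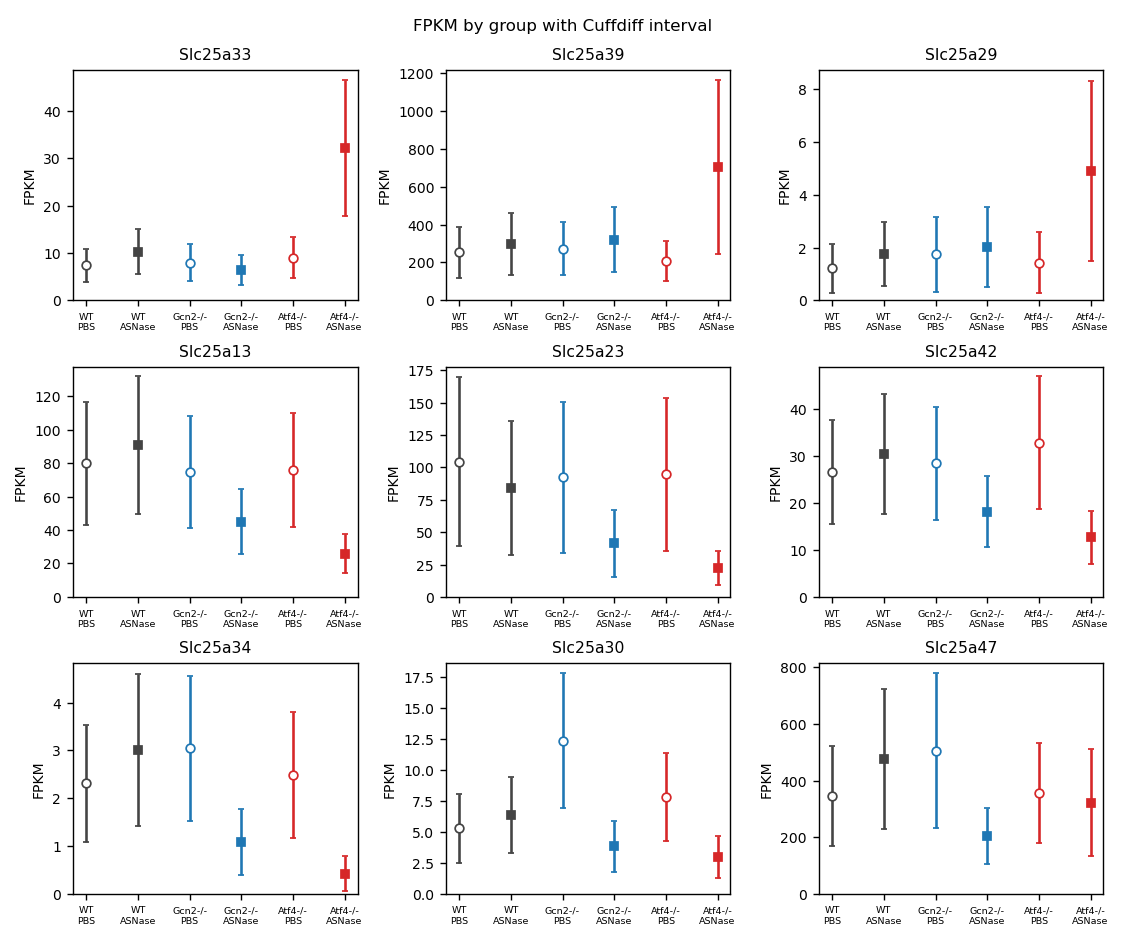
FPKM (vertical axes) in the 6 groups (horizontal axes) of 9 members, as points with their Cuffdiff intervals, open circles for PBS and filled squares for ASNase. The Atf4-/- ASNase interval of Slc25a33, 17.8 to 46.6 FPKM, lies above all the others, while those of Slc25a39 and Slc25a29 overlap the other groups.

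Cofactor carriers included *Slc25a42*, which brings coenzyme A into the matrix. It stood at 26.7 (15.6 to 37.8) and 30.5 (17.6 to 43.3) FPKM in WT, 28.4 (16.4 to 40.5) and 18.2 (10.6 to 25.8) in *Gcn2*-/- and 32.9 (18.6 to 47.1) and 12.8 (7.12 to 18.4) in *Atf4*-/-. The 2 *Atf4*-/- intervals did not overlap, but the log2 difference of -1.36 (error 0.951) was under the limit of 1.5. It differed from the WT response by -1.55, beyond its error of 1.31. The proposed coenzyme A carrier *Slc25a16*, the folate carrier *Slc25a32* and the S-adenosylmethionine carrier *Slc25a26* were all between 3.31 and 24.9 FPKM, and none was past 2-fold. A further carrier, *Slc25a51* (NAD), is listed under its older symbol *Mcart1* and so was not a member, and it stood at 24.7 and 32.5 FPKM in WT, 17.5 and 29.9 in *Gcn2*-/-, and 28.5 and 23.7 in *Atf4*-/- liver.

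Of the 3 members related to the uncoupling proteins, *Slc25a30* (chr14:75760117-75787037, minus strand, ENSMUSG00000022003) had the highest values. *Ucp2*, an uncoupling protein outside the name rule, stood higher. Its values were 46.6 and 34.6 FPKM in WT, 22.5 and 28.7 in *Gcn2*-/- and 37.1 and 20.2 in *Atf4*-/-. *Slc25a30* stood at 5.27 (2.51 to 8.02) and 6.34 (3.25 to 9.42) FPKM in WT, 12.4 (6.94 to 17.8) and 3.81 (1.76 to 5.87) in *Gcn2*-/- and 7.84 (4.28 to 11.4) and 2.95 (1.25 to 4.64) in *Atf4*-/-. *Gcn2*-/- PBS was the highest group, and its interval did not overlap those of *Gcn2*-/- ASNase or *Atf4*-/- ASNase. It fell in *Gcn2*-/- by 1.67 on the log2 scale (error 1.08), 3.19-fold, the only member called there, and with a pseudocount of 1 in place of 0.1 the difference was -1.47 and not called. The difference in *Atf4*-/- was -1.38 (error 1.14), and in WT 0.26. Under PBS it was higher in *Gcn2*-/- than in WT by 1.22 (error 1.06), past 2-fold and not called. The ASNase difference minus that in WT was -1.93 in *Gcn2*-/- (error 1.55) and -1.64 in *Atf4*-/- (error 1.59), both beyond their errors.

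Of the 7 members to which no substrate was assigned here, none was called between ASNase and PBS in any strain. Of all genes, 0.881% were called in WT, 2.13% lower and 1.56% higher in *Gcn2*-/-, and 4.63% and 2.74% in *Atf4*-/-. *Slc25a35* (0.832 FPKM or less) and *Slc25a43* (0.106 or less) were too low to be called, as was *Slc25a34* in *Atf4*-/-. *Slc25a47* stood at 346 (169 to 523) and 476 (228 to 725) FPKM in WT, 506 (231 to 781) and 202 (103 to 301) in *Gcn2*-/- and 355 (179 to 531) and 321 (132 to 510.4) in *Atf4*-/-. *Gcn2*-/- was the strain in which its values differed most with ASNase, at -1.32 (error 1.17), past 2-fold and not called, beside 0.46 in WT and -0.14 in *Atf4*-/-. The *Gcn2*-/- response minus that in WT was -1.79, beyond its error of 1.65. The neighbouring gene *Slc25a29*, on the opposite strand of chromosome 12, had ASNase differences of 0.21 in *Gcn2*-/- and 1.72 in *Atf4*-/-.

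*Slc25a34* (chr4:141618824-141623821, minus strand, ENSMUSG00000040740) was low, at 2.31 (1.08 to 3.53) and 3.00 (1.41 to 4.60) FPKM in WT, 3.04 (1.52 to 4.55) and 1.08 (0.39 to 1.76) in *Gcn2*-/- and 2.48 (1.16 to 3.81) and 0.419 (0.0569 to 0.781) in *Atf4*-/-. The *Atf4*-/- ASNase interval lay below those of both WT groups, *Gcn2*-/- PBS and *Atf4*-/- PBS. It was lower in *Atf4*-/- ASNase than in WT ASNase by a called log2 difference of -2.58 (error 1.49), and lower than in *Atf4*-/- PBS by -2.32 (error 1.49), where neither value was over 3 FPKM and no call was made. With a pseudocount of 1 the first difference was no longer past the limit. In *Gcn2*-/- the difference was -1.42 (error 1.23). The responses minus that in WT were -2.68 in *Atf4*-/- (error 1.88) and -1.78 in *Gcn2*-/- (error 1.68), beyond their errors. *Slc25a45* stood at 16.1 and 10.4 FPKM in WT, 13.0 and 11.4 in *Gcn2*-/- and 13.9 and 6.09 in *Atf4*-/-. *Slc25a48* stood at 4.13 and 3.88 FPKM in WT, 4.95 and 3.22 in *Gcn2*-/- and 3.61 and 1.33 in *Atf4*-/-. Both were past 2-fold lower in *Atf4*-/- with overlapping intervals, at -1.18 and -1.38.

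**Figure D5:**
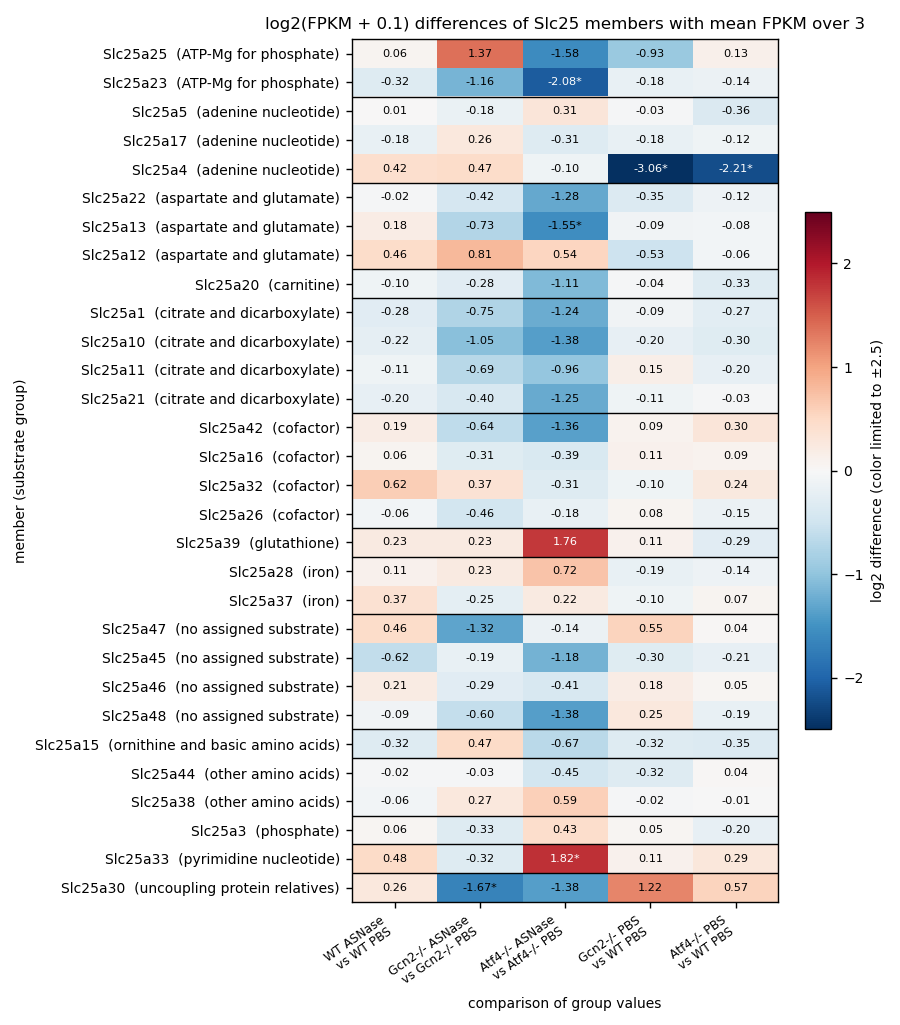
log2(FPKM + 0.1) differences (colour and printed value) of 30 of the 31 members with a mean over 3 FPKM (vertical axis, by substrate group) in 5 comparisons (horizontal axis), with an asterisk for a call. The 6 calls are Slc25a30 in Gcn2-/- after ASNase, Slc25a23, Slc25a13 and Slc25a33 in Atf4-/- after ASNase, and Slc25a4 in both knockouts under PBS.

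Between treated strains, *Gcn2*-/- ASNase held 1 member called lower than in WT ASNase, *Slc25a4* (2.59% of 9423 genes were called lower), and 6 past 2-fold, all lower (8.0% of genes lower). *Atf4*-/- ASNase held 4 called members of 33, *Slc25a33* higher and *Slc25a13*, *Slc25a34* and *Slc25a4* lower (of 9577 genes 2.59% were called higher and 5.66% lower). There 17 were past 2-fold, 3 higher and 14 lower, beside 10.5% of genes higher and 14.1% lower. The 3 higher were *Slc25a29*, *Slc25a33* and *Slc25a39* and were also past 2-fold higher than in *Gcn2*-/- ASNase, where 4 more were past 2-fold lower (5.51% of genes higher and 8.17% lower). Under PBS the knockouts differed from each other in no called member of 32 (0.976% of 9015 genes were called), and 1 member, *Slc25a25*, was past 2-fold higher in *Atf4*-/- (2.5% of genes). These comparisons share the WT ASNase and *Atf4*-/- ASNase groups with those above and are not independent of them. Of the 4 members past 2-fold with ASNase in both knockouts, *Slc25a10*, *Slc25a23* and *Slc25a30* were lower in both. By its values *Slc25a25* was higher in *Gcn2*-/- and lower in *Atf4*-/-, but its intervals reached 0 in every group. How many of all genes were past 2-fold in both knockouts was not counted, so this overlap has no background beside it.

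Responses that differed from WT by more than the combined error of 4 values were found for 2 of 31 members over 3 FPKM in *Gcn2*-/- (5.82% of 9062 genes) and for 3 of 31 in *Atf4*-/- (8.62%). Between the knockouts it was 1 of 31, *Slc25a33* (5.43%). The shares of members were close to these backgrounds. The lower-expressed *Slc25a34* was past its error in both knockouts as well.

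The partner genes of mitochondrial transport, 39 in all with 35 expressed enough for a call, held no gene called higher. None was called in WT, 2 fell in *Gcn2*-/- (*Otc* and *Me1*, beside 2.13% of all genes called lower), 2 fell in *Atf4*-/- (*Cpt2* and *Otc*, beside 4.63%) and none rose. Against WT ASNase, 3 were called lower in *Atf4*-/- ASNase (*Cpt1a* at -1.93, *Cpt2* at -2.13 and *Otc* at -3.89, beside 5.66% of genes) and 1 in *Gcn2*-/- ASNase (*Me1* at -2.37, beside 2.59%). *Otc* was also lower in *Atf4*-/- ASNase than in *Gcn2*-/- ASNase by a called -2.61. *Me1*, the cytosolic malic enzyme that works with exported citrate, stood at 103 and 88.9 FPKM in WT, 54.7 and 17.1 in *Gcn2*-/- and 36.2 and 33.4 in *Atf4*-/-, and fell in *Gcn2*-/- by 1.67 on the log2 scale. It was also lower in *Atf4*-/- PBS than in WT PBS by a called -1.51. *Sfxn2*, a sideroflexin of the inner mitochondrial membrane, stood at 15.6 and 15.1 FPKM in WT, 16.6 and 21.7 in *Gcn2*-/- and 13.2 and 6.78 in *Atf4*-/-, and was lower in *Atf4*-/- ASNase than in *Gcn2*-/- ASNase by a called -1.66. Of 7 hepatocyte markers, 5 had estimates in every group and were over 3 FPKM in all of them, and for *Alb* and *Fgb* Cuffdiff gave no estimate, in every group for *Alb* and in both treated knockout groups for *Fgb*, because of too many reads. The summed level of the 5 was 31289 and 24494 FPKM in WT, 30994 and 16401 in *Gcn2*-/-, and 24900.4 and 9668 in *Atf4*-/- liver, lowest in *Atf4*-/- ASNase. The 5 did not all go the same way. In *Atf4*-/- liver *Ttr* stood at 3541 and 854 FPKM, *Apoa1* at 5980 and 2757, and *Apoa2* at 13637 and 3546. *Cps1* stood there at 791 and 498, and only *Tat* was higher after ASNase, at 952 and 2013. In *Gcn2*-/- liver *Ttr* stood at 4949.9 and 1749 FPKM, *Apoa1* at 8602 and 2657, and *Apoa2* at 16076 and 9229. There *Tat* stood at 613 and 1987, and *Cps1* at 754 and 779. The part of hepatocyte content in the carrier differences was not tested.

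The 21 members outside the rule for full values comprised 10 with a mean over 3 FPKM and 11 at or under it. The first set included *Slc25a11*, *Slc25a12*, *Slc25a16*, *Slc25a17* (a peroxisomal carrier of coenzyme A and nucleotides), *Slc25a26*, *Slc25a32*, *Slc25a37*, *Slc25a38* and *Slc25a46* (an outer membrane member). Values of the set lay between 3.31 and 57.0 FPKM, and the highest group was 1.33 to 2.49 times the lowest. The second set held *Slc25a2*, *Slc25a14*, *Slc25a18*, *Slc25a24*, *Slc25a27*, *Slc25a31*, *Slc25a35*, *Slc25a36*, *Slc25a40*, *Slc25a41* and *Slc25a43*. Their values lay between 0 and 2.15 FPKM, and none could be called.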

How the data were processed

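RNA-Seq was measured in liver from 18 mice in 6 groups of 3, assigned from the sample labels. Single-end reads were mapped by the authors to the mouse build mm10, which is GRCm38 (TopHat, Bowtie). Transcript models were then built and merged (Cufflinks, Cuffmerge), and Cuffdiff gave the FPKM values that the authors deposited, with bounds and a status, pooled over the 3 libraries of each group. How reads shared by paralogs or overlapping genes were divided follows that software. The table holds no counts, so precision was taken from the intervals, and the library depths listed by the study were not used here. There were 0 value columns outside the group map, and the authors' own comparisons were not used.

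From the deposited FPKM values, log2(FPKM + 0.1) differences were computed over all 37303 genes for 9 comparisons in Python 3.11.15 with pandas 2.3.3 and NumPy 2.4.6. A gene could be called with both estimates successful, both values above 0 and either over 3 FPKM, and was called past an absolute log2 difference of 1.5 with separate intervals. With pooled values there was no test and no p-value. The procedure was tested on simulated data with planted changes larger than any called in a member here. That test therefore does not show how often changes of the sizes reported would be called. Members named with all values were those called in any comparison, those past 2-fold in an ASNase or untreated comparison, and the highest of each substrate group. *Slc25a11*, *Slc25a12*, *Slc25a36*, *Slc25a37*, *Slc25a38*, *Slc25a40* and the ratios between members were added after their values were seen. Partner genes were given values where called, with *Ucp2* added for its level. A member is counted among the 44 but not reported by name here. Positions are from GENCODE release M21 and the promoter windows from RefSeq (GRCm38.p6). The members, gene lists and motifs were chosen with earlier results of these data known. Alternatives were other pseudocounts, FPKM minimums, an interval rule and a scaling.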

Additional observations from a re-analysis of the deposited data

How the results depend on the processing

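Each count and named difference was recomputed with a pseudocount of 1 or 0.01, an FPKM minimum of 1 or none, a combined interval in place of separate ones, and median-ratio scaling of the groups (factors 0.978 to 1.03). Of 30 named differences, 0 reversed, 2 lost their call and 1 gained one. With a pseudocount of 1, *Slc25a30* in Gcn2-/- was at -1.47 on the log2 scale, which left 0 members called there in place of 1, and *Slc25a34* in Atf4-/- ASNase against WT ASNase was at -1.50. By construction a larger pseudocount shrinks differences of low genes. With the combined interval *Slc25a39* (1.76) was called in Atf4-/-. All other counts of members stayed within 1.5 times, which for small counts is a wide limit. Members called in Atf4-/- ASNase against WT ASNase were 4 as reported and 3 with a pseudocount of 1. They were 5 with a pseudocount of 0.01 or the combined interval, and 6 with scaling. Those called with ASNase in Atf4-/- went from 3 to 4 with an FPKM minimum of 1 or none. The 30 named differences do not include every member that gained a call in these counts. No paired analysis was possible because the table holds 1 value per group, with no replicate number in its columns, and leaving out single mice was not run for the same reason. The intervals limit what can be seen: those of *Slc25a12*, *Slc25a22* and *Slc25a25* reach 0 in every group.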
